A study of Mus musculus with 8 samples.

Results

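The tripartite motif (Trim) genes were the subject here, 68 protein-coding genes whose symbol is Trim followed by a number, out of 21779 protein-coding genes used. Trim proteins carry a RING finger, 1 or more B-box zinc fingers and a coiled coil, followed by a variable C-terminal domain that divides the family into classes. Most act as RING-type ubiquitin ligases, and many take part in antiviral and cytokine signalling in immune cells. Trim33 (ectodermin, TIF1γ) has a direct link to the factor profiled here, since it binds phosphorylated SMAD2 and SMAD3 and ubiquitinates SMAD4.

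Smad4 occupancy was measured by ChIP-seq, in which DNA bound by a protein is recovered with an antibody and sequenced. The cells were C57BL/6 mouse CD4+ T cells (tissue given as spleen and lymph nodes), activated and collected 12 h into treatment with IL6 and a TGFbR inhibitor, a condition shared by all groups. There were 2 wild-type (WT) libraries and 2 knockout (KO) libraries of genotype CD4cre;Smad4fl/fl, in which Cre driven by Cd4 regulatory sequence recombines floxed Smad4 in T cells. Both WT samples were female, KO replicate 1 was a pool of males and females and KO replicate 2 was male, so sex and genotype cannot be told apart. Whether the replicates are separate animals, and how old the mice were, is not stated in the labels. All 68 Trim genes are autosomal.

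Each library has a list of peak positions, without height or score, and read depth is unknown. The WT lists held 27120 and 19792 peaks and the KO lists 564 and 424. Of the 6 T cell markers checked, all held a region called in WT only, as did 0 of 5 myeloid markers and 2 of 5 B cell markers (Cd79a and Pax5). The CD8 markers Cd8a and Cd8b1 held none, and Cd8b1 had 3 peaks in WT replicate 1 and 1 in KO replicate 1. Peak positions are no measure of expression, so these counts do not give the makeup of the cells.

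Smad4 peaks lay at a majority of the Trim genes in each WT library and at none in either KO library. In the gene body and 10 kb on both sides (the territory), 43 Trim genes held a peak in WT replicate 1 and 39 in WT replicate 2. Both KO lists gave 0. The mean was 41.0 ± 2.83 genes in WT and 0 in KO (SD, n = 2 each). The WT and KO values did not overlap, and the 2-sided exact permutation test over libraries gave p = 0.333, the smallest that 2 against 2 allows. Over all protein-coding genes, 53.5% held a peak of WT replicate 1 and 48.5% one of WT replicate 2, where the Trim genes stood at 63.2% and 57.4%. Protein-coding genes of the same lengths gave 59.0% and 53.4%. A peak of KO replicate 1 lay at 1.87% of all protein-coding genes, and KO replicate 2 gave 1.16%. Within 1 kb of either end of the gene (a gene end), 24 and 21 Trim genes held a WT peak in replicates 1 and 2 and none held a KO peak (22.5 ± 2.12 against 0, SD, n = 2 each; exact permutation p = 0.333). The same gene-end share over all protein-coding genes was 36.7% and 32.7% in WT and 0.409% and 0.174% in KO.

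**Figure D1:**
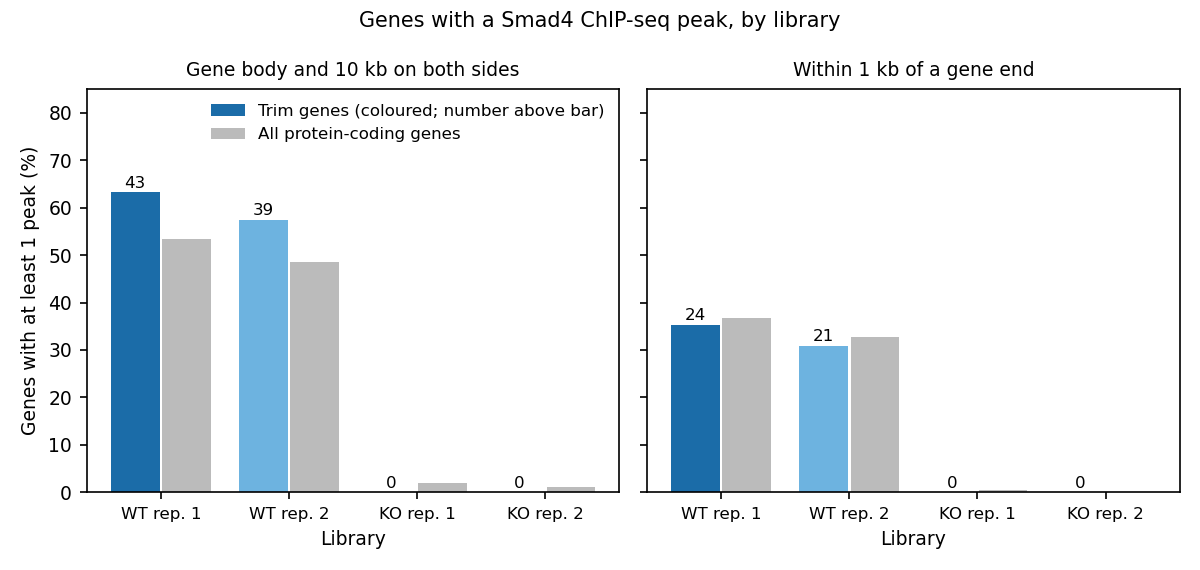
Percentage of genes with at least 1 Smad4 peak (y axis) in each of the 4 libraries (x axis), for the gene territory on the left and gene ends on the right. Coloured bars are the 68 Trim genes with their number above, and grey bars are all protein-coding genes. The WT bars of the Trim genes stand at 63.2% and 57.4% for the territory, and the KO bars are at 0.

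Peaks were merged across the WT lists where they shared 1 bp or more, and a merged region with a peak of both WT lists and of no KO list is called a WT-only region. In all, 33 of the 68 Trim genes (48.5%) held a WT-only region in their territory, against 44.3% of all protein-coding genes. Taking each Trim gene at the share of protein-coding genes in its own length group gave 33.1 genes (48.6%), so the Trim count was level with genes of its length. At gene ends 18 Trim genes (26.5%) held a WT-only region, against 29.4% of all protein-coding genes and 33.1% after the same adjustment for length. A peak of either KO list lay in the territory of 0 Trim genes, where 2.42% of all protein-coding genes had one and the length-adjusted count was 1.52 genes. These shares are descriptions, with no test of the difference, and the family as a whole stood near the background. In 6 Trim genes (8.82%, against 8.32% of all protein-coding genes) the territory held 3 or more such regions: Trim7, Trim41, Trim8, Trim12a, Trim25 and Trim27.

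The 35 Trim genes without a WT-only region split into 3 groups. No list held a peak at 21 of them (30.9%, against 44.1% of all protein-coding genes and 38.2% after adjustment for length), 12 had peaks in 1 WT list alone (17.6%, against 9.66% and 11.1%), and Trim9 and Trim14 had peaks in both WT lists that did not meet. Of the 12, the 8 with a peak in WT replicate 1 were Trim13, Trim15, Trim16, Trim30d, Trim35, Trim55, Trim63 and Trim68, and the 4 with a peak in WT replicate 2 were Trim23, Trim32, Trim45 and Trim80. Each of the 12 genes held a single peak, 240 to 442 bp wide with a median of 302 bp, while the peaks at genes with a WT-only region had a median of 496 bp in WT replicate 1 and 445 bp in WT replicate 2. The single peaks at these 12 genes were thus narrower at the median. The peaks they were set against include some found in 1 WT list alone. The single peaks of Trim15 and Trim30d stand on both sides of the comparison, since they also lie at Trim26 and Trim30a. The overlap rule also favours wide peaks, so the difference is partly built in. At Trim9 and Trim14 the peaks were 240 to 376 bp wide.

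The PHD-bromodomain class, nuclear cofactors that read histone marks, held a WT-only region at 4 of 4 genes, and at a gene end in 3 of 4, beside 44.3% and 29.4% of all protein-coding genes. With 4 genes this is a description of single genes, not of the class. Trim28 (KAP1), the co-repressor of KRAB zinc-finger proteins, lies on chromosome 7 from 13024152 to 13031032 and held 2 peaks in the first WT list, 3 in the second and none in the KO lists. Its gene-end region at 13023220 to 13025253 came from peaks of 2034 bp in WT replicate 1 and 1910 bp in WT replicate 2. The peaks were close in width, and the region ranked 272 of 15882 WT-only regions by summed peak width. It covered the annotated start of Trim28 and also reached an end of the predicted gene Gm31649. A second WT-only region 3.39 kb away had its centre nearest to Chmp2a.

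Trim33 (chromosome 3, 103279293 to 103358770) held 1 peak in each WT library, 1240 bp in replicate 1 and 1552 bp in replicate 2, which formed a WT-only region at 103278781 to 103280340. It was the third widest gene-end region of the family by summed width and met no other gene end. Trim24 (TIF1α), a nuclear receptor cofactor and p53 ubiquitin ligase, likewise held 1 peak in each WT library. The peaks were 1420 and 1050 bp wide in replicates 1 and 2, and the region (chromosome 6, 37870271 to 37871690) covered the annotated start of the gene. Trim66 (TIF1δ) was the class member with no gene-end region. Its region inside the gene was 520 bp wide in WT replicate 1 and 302 bp in WT replicate 2, and its other region had its centre nearest to Rpl27a. With a stricter rule that asks for WT peak centres within 100 bp, 2 of the 4 genes held a WT-only region. Trim24 and Trim33 were the ones without. Their peaks in the WT lists still overlap, and wide peaks can overlap and fail this rule. All protein-coding genes stood at 37.1% under this rule.

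The promoter sequences are shown for Trim28, Trim24 and Trim27, where a WT-only region covers all 250 bases before the start. The Trim26 window, also covered in full, is shown for its motif matches. Windows of Trim25, Trim30a, Trim37, Trim39, Trim41, Trim44 and Trim59 were covered in full as well and are not printed. The printed sequences are those of RefSeq on GRCm38.p6 (mm10), 5′ to 3′ on the strand of the gene, ending just before the annotated start. Capitals mark CAGAC or its reverse complement GTCTG, a core of the SMAD binding element, and an IRF-type motif, a pattern of interferon regulatory factor sites made of GAAA, any 2 bases and GAAA, or its reverse complement. The windows are chr7:13023902-13024151 (plus strand) for Trim28, chr6:37870561-37870810 (plus) for Trim24, chr13:21179681-21179930 (plus) for Trim27 and chr17:36836896-36837145 (plus) for Trim26.
Trim28: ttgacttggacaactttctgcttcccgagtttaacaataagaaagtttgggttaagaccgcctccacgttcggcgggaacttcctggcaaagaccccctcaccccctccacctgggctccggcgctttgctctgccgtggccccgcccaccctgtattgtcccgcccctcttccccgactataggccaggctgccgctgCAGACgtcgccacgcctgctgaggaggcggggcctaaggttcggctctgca
Trim24: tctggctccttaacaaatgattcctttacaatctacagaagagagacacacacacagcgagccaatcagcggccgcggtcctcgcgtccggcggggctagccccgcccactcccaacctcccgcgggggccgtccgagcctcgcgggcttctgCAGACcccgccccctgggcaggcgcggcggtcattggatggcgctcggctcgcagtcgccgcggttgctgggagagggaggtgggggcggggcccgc
Trim27: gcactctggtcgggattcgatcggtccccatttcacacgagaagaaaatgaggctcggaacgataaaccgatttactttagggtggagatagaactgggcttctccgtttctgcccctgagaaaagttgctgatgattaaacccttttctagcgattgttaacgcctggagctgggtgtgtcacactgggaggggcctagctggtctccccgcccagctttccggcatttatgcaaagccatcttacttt
Trim26: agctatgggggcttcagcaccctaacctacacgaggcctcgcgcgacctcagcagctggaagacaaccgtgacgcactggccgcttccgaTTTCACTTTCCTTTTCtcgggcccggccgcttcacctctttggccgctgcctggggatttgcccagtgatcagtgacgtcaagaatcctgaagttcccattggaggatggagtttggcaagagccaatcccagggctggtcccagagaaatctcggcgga
Trim28 and Trim24 each held 1 CAGAC match, and Trim27 and Trim26 held none. Among the fully covered windows that are not printed, only that of Trim30a held CAGAC. The Trim26 window held 2 overlapping matches to the IRF-type motif.

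Both motifs were counted in the 250-base windows of all 32851 promoter entries. CAGAC occurred in 42.2% of them and the IRF-type motif in 2.98%, on either strand. Of the 67 Trim windows, 30 held CAGAC (44.8%), with 4 of the 15 whose start lay in a WT-only region (26.7%). Over all promoter entries with a start in a WT-only region the CAGAC share was 40.8%. The IRF-type motif occurred in 5 Trim windows (7.46%), at Trim26 and Trim12c among those with a start in a WT-only region. The others were at Trim5, Trim30a and Trim30d. All but Trim26 lie in a gene cluster on chromosome 7. There the aligned windows of Trim5 and Trim12c were 94.8% identical, and those of Trim30a and Trim30d 92.2%, so these matches are not separate cases. GGCGC, another letter string reported for SMAD proteins, occurred in 8 of the 15 windows (53.3%) and in 14 of the other 52 Trim windows (26.9%), against 67.2% of all entries with a start in a WT-only region. These windows differ in base composition, with a median GC content of 63.2% in the 15 Trim windows and 51.4% in the other 52. The part of base composition in the GGCGC counts was not tested. The windows are also not separate genes. Trim39 gave 3 of the 15, and its starts at 36271431 and 36271433 have nearly the same window, each counted with GGCGC.

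The SPRY class, named for a protein interaction domain of many antiviral Trim proteins, is the largest, and 19 of its 39 genes held a WT-only region, 11 of them at a gene end, near the 44.3% and 29.4% of all protein-coding genes. With only peaks at or above the median width of each list, 10 of the 39 held one, against 29.9% of all protein-coding genes. A further 5 had a peak in 1 WT list, 14 had no peak, and the last was Trim14. Trim27, a ubiquitin ligase that restrains CD4 T cell receptor signalling, held 3 peaks in each WT library and 3 WT-only regions. The region at its start (chromosome 13, 21179673 to 21181210) came from peaks of 1390 bp in WT replicate 1 and 814 bp in WT replicate 2. The other 2 lay 9.28 kb and 5.13 kb from the gene, and Trim27 was the nearest gene to all 3. Trim39, which regulates the anaphase-promoting complex and apoptosis, held 2 peaks in each WT library. Its start region (chromosome 17, 36270934 to 36272117) combined 1126 bp in WT replicate 1 with 1184 bp in WT replicate 2, and the region near its other end had its centre nearest to Rpp21.

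Among the SPRY ligases of innate sensing, Trim25, which ubiquitinates RIG-I, held 4 peaks in the first WT list and 3 in the second. Of its 3 WT-only regions, 1 covered the start (chromosome 11, 88999151 to 88999627; 434 bp wide in WT replicate 1 and 402 bp in WT replicate 2) and 1 lay nearest to Coil. Trim65, which acts on MDA5, held a gene-end region, 1018 bp wide in WT replicate 1 and 916 bp in WT replicate 2, which also met an end of Mrpl38, and a second region nearest to Mrpl38. Trim26 had a gene-end region with peaks of 632 bp in WT replicate 1 and 242 bp, the smallest width of its list, in WT replicate 2. Trim21, the cytosolic antibody receptor, and Trim38 had no peak in any library, and neither did Trim56, a regulator of cGAS and STING outside this class. Among these few genes, named after their values were seen, some held a WT-only region and some had no called peak.

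Trim7, a glycogenin-binding ligase, had the most peaks of the family, 8 and 9 in the WT lists (replicates 1 and 2), and 6 WT-only regions. Its neighbour Trim41, a ligase of protein kinase C, had 5 and 4 peaks and 4 WT-only regions. With a territory of 5 kb these numbers of regions were 3 and 2, and in the gene body alone 1 and 1. The territories overlap, and 3 of these regions count for both genes. Trim41 held a region at its start (chromosome 11, 48816745 to 48817646; widths 694 and 902 bp), while none of the regions of Trim7 lay at a gene end. The next pair on chromosome 11, Trim17 and Trim11, shared a region inside Trim11 (58977379 to 58978601), with peaks of 1152 bp in WT replicate 1 and 838 bp in WT replicate 2. Trim17, which ubiquitinates the survival protein MCL1, also held a gene-end region that met an end of the histone gene H2aw.

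**Figure D2:**
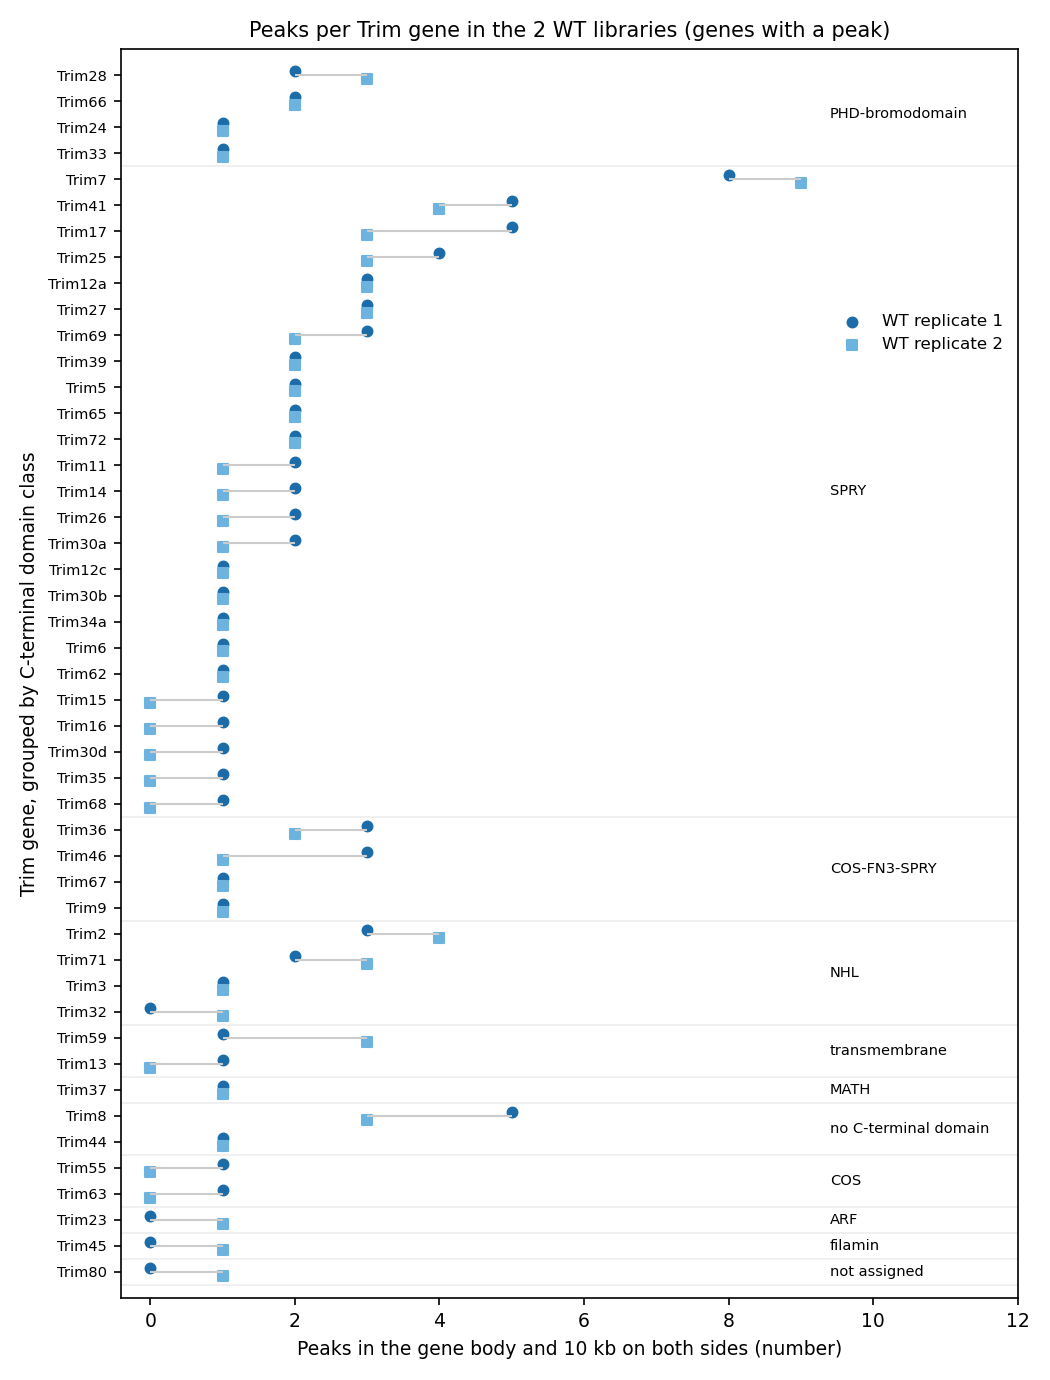
Number of peaks in the gene territory (x axis) for each Trim gene with a peak (y axis, grouped by C-terminal domain class), in WT replicate 1 (circles) and WT replicate 2 (squares), joined by a line. Most genes have similar numbers in both libraries, Trim7 has the most with 8 and 9, and neither KO library had a peak at these genes.

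A cluster of 10 SPRY genes on chromosome 7, from Trim6 (start 104218795) to Trim30d (end 104507853), includes Trim5 and the Trim12 and Trim30 genes, mouse relatives of the primate retroviral restriction factor TRIM5. A WT-only region lay in the territory of 7 of the 10 genes, beside 44.3% of all protein-coding genes. Of the 7, Trim6 and Trim30b counted only through a region nearest to a neighbour, Trim34a and Trim12c. Trim34a, Trim12a and Trim12c held one at a gene end, and Trim34b and Trim30c had no peak. Trim34a had a peak of 364 bp in each WT library over its start (104244359 to 104244745). Between Trim5 and Trim12a lay 2 regions, at 104290395 to 104291120 and at 104291154 to 104292674. The second was 1258 bp wide in WT replicate 1 and 1014 bp in WT replicate 2, and the first 240 and 726 bp. Both were nearest to Trim5, the first 2.14 kb and the second 2.90 kb beyond the end of the gene that holds its annotated start. Trim30a, which in mouse dampens NF-κB signalling through TAB2 and TAB3, held a region over an annotated internal start, with peaks of 508 and 372 bp.

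**Figure D3:**
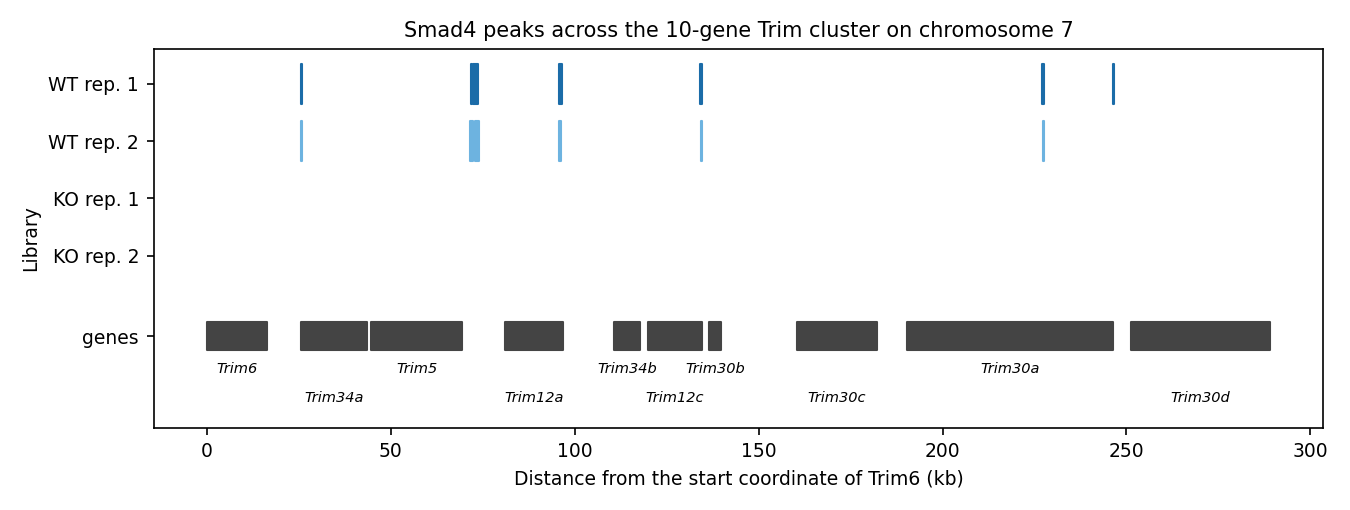
Peaks of the 4 libraries (rows) along the 10-gene Trim cluster of chromosome 7 (x axis, kb from the start coordinate of Trim6), with the genes as dark boxes. Marks of the 2 WT libraries coincide at most positions, and the KO rows are empty.

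Among copies within the cluster, aligned promoter windows were 55.4% identical for Trim34a and Trim34b and 54.2% for Trim30b and Trim30c. Those of Trim5, Trim12a and Trim12c were closer in sequence, which is why these 3 are printed. The windows, all on the minus strand, are chr7:104288107-104288356 for Trim5, chr7:104315496-104315745 for Trim12a and chr7:104353350-104353599 for Trim12c, with capitals as before.
Trim5: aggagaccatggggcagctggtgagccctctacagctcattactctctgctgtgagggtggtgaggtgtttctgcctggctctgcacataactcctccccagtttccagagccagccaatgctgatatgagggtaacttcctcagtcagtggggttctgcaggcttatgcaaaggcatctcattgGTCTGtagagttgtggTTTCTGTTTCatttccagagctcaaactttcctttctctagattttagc
Trim12a: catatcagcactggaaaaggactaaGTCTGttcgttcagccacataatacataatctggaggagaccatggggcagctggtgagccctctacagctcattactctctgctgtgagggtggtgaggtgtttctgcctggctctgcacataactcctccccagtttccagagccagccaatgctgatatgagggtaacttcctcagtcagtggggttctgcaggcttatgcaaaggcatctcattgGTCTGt
Trim12c: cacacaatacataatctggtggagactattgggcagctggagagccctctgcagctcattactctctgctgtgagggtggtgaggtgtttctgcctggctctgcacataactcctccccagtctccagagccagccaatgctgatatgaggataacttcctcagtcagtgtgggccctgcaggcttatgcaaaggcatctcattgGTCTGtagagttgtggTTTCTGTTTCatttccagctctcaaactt
Where the Trim5 and Trim12a windows align they were identical in 191 of 191 columns, and Trim5 and Trim12c in 219 of 231 (94.8%). The windows are offset, since the annotated starts differ. Coverage of the windows by WT-only regions differed. Since the windows are offset and sequence past the starts was not aligned, this does not compare matching bases. A WT-only region covered 100 of the 250 bases at Trim12c (peaks of 596 bp in WT replicate 1 and 242 bp in WT replicate 2) and 0 at Trim5 and at Trim12a. The region at Trim12a (peaks of 652 and 588 bp) had its centre 600 bp past its start. How reads that match several copies were handled is not given in the sources used here, so values at these genes are uncertain. Trim60 and Trim61, copies on chromosome 8 that share an annotated start, had no peak, nor did Trim43a, Trim43b or Trim43c.

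Trim8, a RING ligase that binds SOCS1 and PIAS3, stood apart in peak width. The first WT list held 5 peaks there and the second 3, and both KO lists held none. Its gene-end region (chromosome 19, 46499326 to 46503678; gene 46501648 to 46516805) had peaks of 4274 bp in WT replicate 1 and 4294 bp in WT replicate 2. It ranked 5 of 15882 WT-only regions by summed peak width and met no other gene end. The next widest Trim region, at Trim28, had a summed width of 3944 bp, against 8568 bp at Trim8. Trim8 also held a region inside the gene (780 and 368 bp) and another 1.52 kb beyond it (554 and 242 bp). Under a rule of 50% overlap of both peaks, or with only peaks at or above the median width of each list, 1 of these 3 regions was left. Of the 7 genes grouped with Trim8 as having no named C-terminal domain, only Trim44, which lacks a RING finger, held another WT-only region (chromosome 2, 102400076 to 102401275; widths 1200 and 516 bp), over its start, and it too no longer counted at 50% overlap. Trim29, Trim31, Trim40, Trim52 and Trim56 had no peak.

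**Figure D4:**
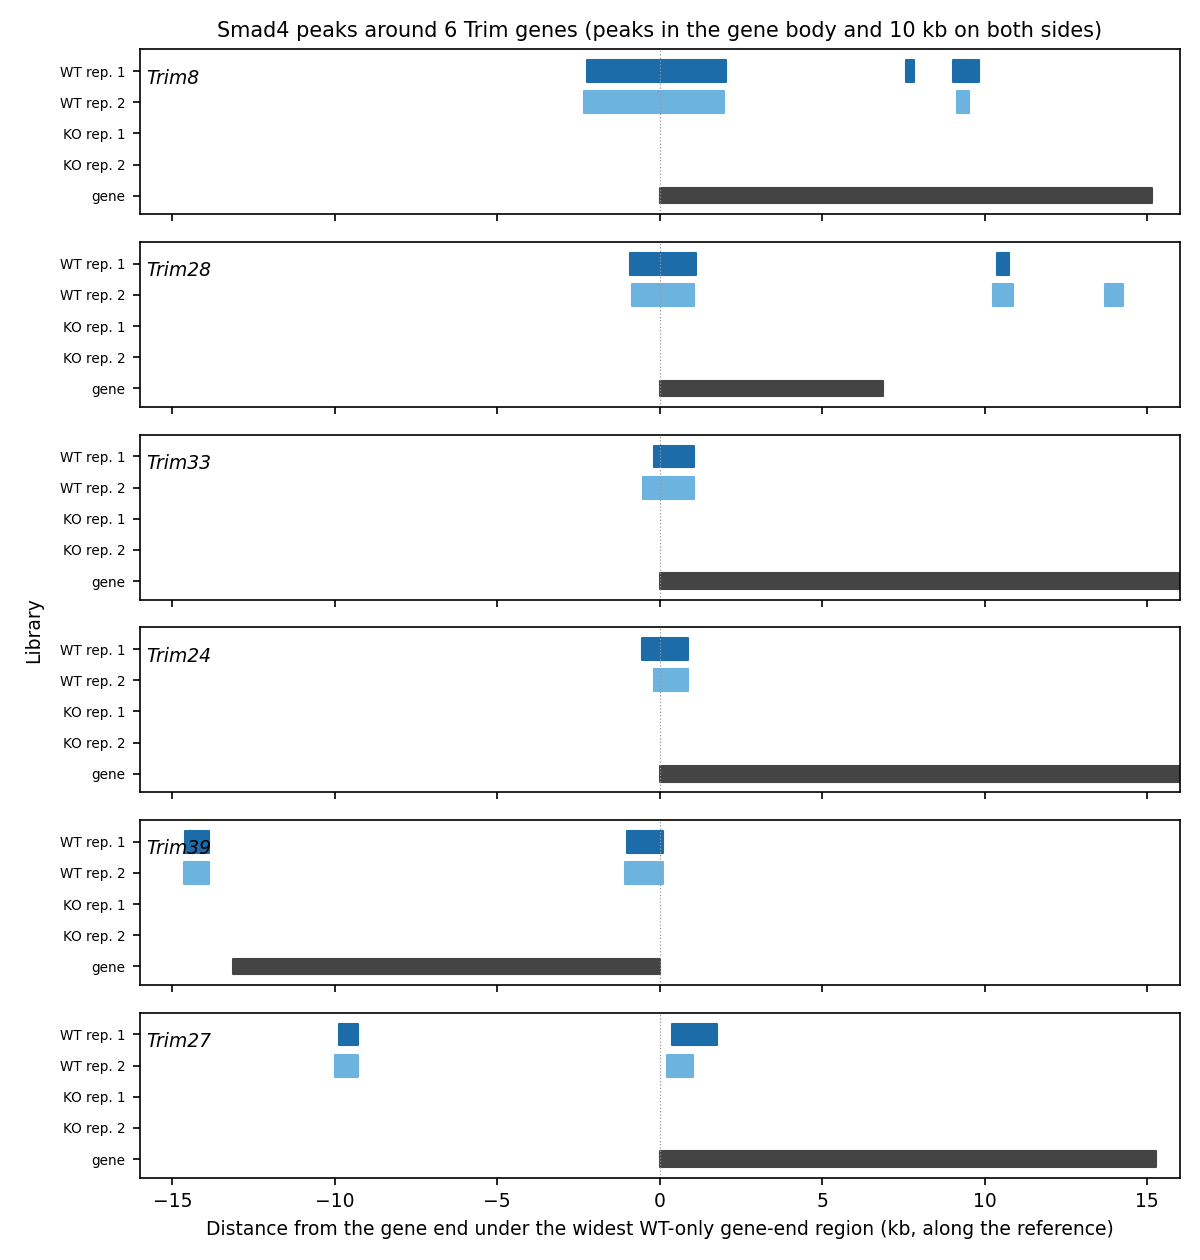
Peaks of the 4 libraries (rows) around the gene end under the widest gene-end region of 6 Trim genes (x axis, kb along the reference; dark bar, gene). The Trim8 peaks span over 4 kb in both WT libraries, those of the other 5 genes are narrower, and the KO rows are empty.

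In the NHL class, RNA-binding or cytoskeletal regulators with a propeller domain, 3 of 4 genes held a WT-only region and none at a gene end, where all protein-coding genes stood at 44.3% and 29.4%. Trim2, known from neurofilament turnover, held 3 peaks in the first WT list and 4 in the second. Its widest region lay 3.65 kb outside the gene (1186 bp wide in WT replicate 1 and 500 bp in WT replicate 2), and its other region was nearest to Mnd1. Trim71 (LIN-41), a let-7 target of stem cells, held a narrow region inside the gene and one nearest to the chemokine receptor gene Ccr4. The only region of Trim3 was nearest to Timm10b. Counting regions in the gene body alone left 1 NHL gene, Trim71, where all protein-coding genes stood at 34.8%. Keeping only peaks at or above the median width of each list also left 1, against 29.9%.

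The microtubule-binding class with COS, FN3 and SPRY domains had a WT-only region at 3 of 4 genes, again none at a gene end, against the same 44.3% and 29.4%. Trim36 (chromosome 18, 46165300 to 46212607) held 2 regions inside the gene, the wider being 674 bp in WT replicate 1 and 604 bp in WT replicate 2. Trim67, a neuronal member, held 1 inside the gene (608 and 394 bp), and the region of Trim46 was nearest to Muc1. In the COS class, which includes the muscle RING-finger ligases, 0 of 4 genes held a WT-only region, beside 44.3% of all protein-coding genes, Trim63 (MuRF1) and Trim55 having a single peak of 240 bp each in WT replicate 1. Trim37, the MATH-domain ligase of peroxisomes and centrosomes, held a region at its start (chromosome 11, 87126589 to 87127305; widths 666 and 674 bp). Trim59, a membrane-anchored ligase, had a start region with 1 peak of 1114 bp in WT replicate 1 and 2 peaks summing to 554 bp in WT replicate 2, which no longer counted under the rule of 50% overlap.

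The Trim territories held 52 distinct WT-only regions, 8 of them shared by more than 1 Trim gene. Their median width was 671 bp (range 300 to 4353), against 656 bp for the 12948 WT-only regions in territories of all protein-coding genes. The 19 that met a Trim gene end had a median of 902 bp, against 758 bp for the 5731 at gene ends of all protein-coding genes. By their centre, 17 lay at a gene end, 11 elsewhere inside a Trim gene and 24 outside. For 12 regions the nearest protein-coding gene was no Trim gene, and for Trim3 and Trim46 this held for their only region. Peak widths in the 2 WT libraries had a Spearman correlation of 0.612 over the 52 regions, which share 2 libraries and are not replicates. WT replicate 1 had the wider peak in 32 regions and WT replicate 2 in 19. Over the whole genome WT replicate 1 was the wider in 10710 of 15882 WT-only regions, so this lean is not particular to Trim genes.

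**Figure D5:**
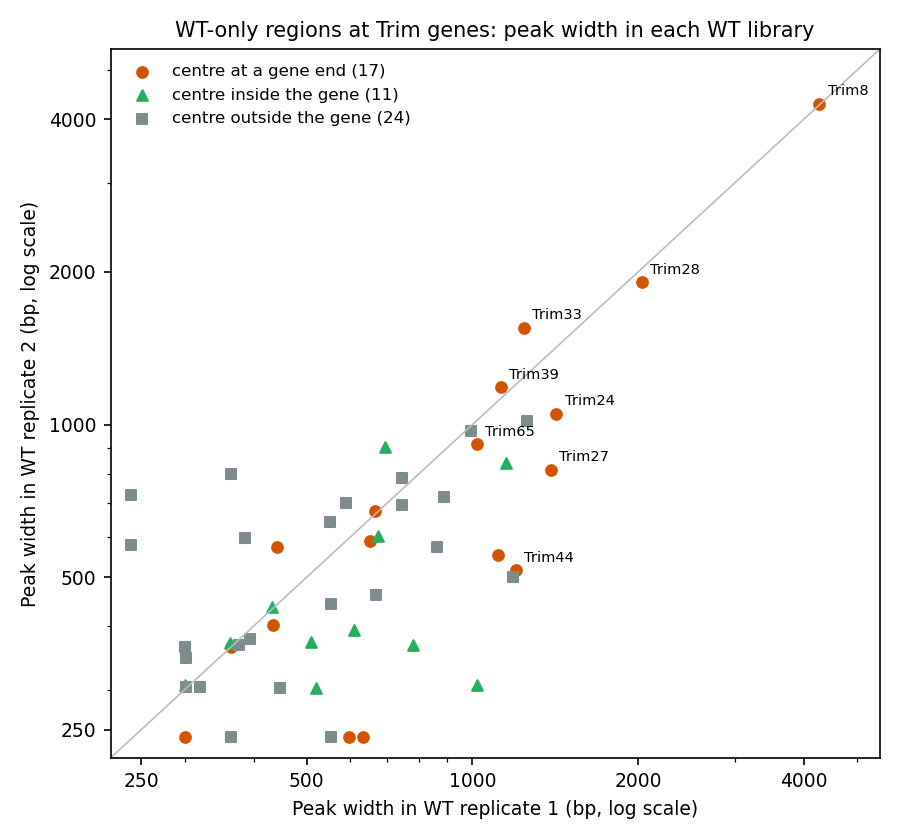
Peak width in WT replicate 1 (x axis, bp, log scale) against WT replicate 2 (y axis, bp, log scale) for the 52 WT-only regions at Trim genes, by where the region's centre lies; the line marks equal widths. Trim8 stands at the upper right with 4274 and 4294 bp, and Trim28 follows with 2034 and 1910 bp.

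An annotated start was listed for 53 of the 68 Trim genes, and 13 of them (24.5%) had it covered by a WT-only region, against 26.9% of the 17492 protein-coding genes with an entry. Among the 26 of these genes with any WT-only region, the centre nearest to a start lay within 500 bp of it in 13 and at a median distance of 446 bp. Of the 18 Trim genes with a WT-only region at a gene end, 14 shared it with no other protein-coding gene. The other 4 were Trim17, Trim28, Trim39 and Trim65.

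By gene length, of the 19 Trim genes under 10 kb, 5 held a WT-only region (26.3%), as did 31.3% of all protein-coding genes of that length. Among those over 50 kb it was 8 of 9 (88.9%), against 53.5%. In between, 12 of 21 Trim genes of 10 to 20 kb (57.1%, against 47.4%) and 8 of 19 of 20 to 50 kb (42.1%, against 53.2%) held one. In all, 6 clusters of neighbouring Trim genes held 24 of the members. A WT-only region lay at 13 of these and at 20 of the 44 single genes, beside 44.3% of all protein-coding genes. Among the 13, Trim6 and Trim30b counted only through a region nearest to a neighbouring Trim gene.

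Genes related to the Trim family, or working with Trim proteins, held WT-only regions as follows. Of 6 related genes without a Trim symbol, for proteins with a RING finger, a B-box or both, 5 held a WT-only region. Among them were Mid1 and Pml, the scaffold of PML nuclear bodies, with 3 peaks in the first WT list and 1 in the second. The exception was Mid2. In the gene body alone, 1 of the 6 held a WT-only region (34.8% of all protein-coding genes), and 2 did by nearest gene (36.7%). Of 14 innate sensor and adaptor genes on which Trim proteins act, 10 held a WT-only region, 7 at a gene end (29.4% of all protein-coding genes), including Ddx58 (RIG-I), Cgas, Tbk1 and Traf6. Ticam1, Sting1, Irf7 and Tab3 held none. The 10 fell to 6 with WT peak centres within 100 bp and to 4 with only peaks at or above the median width of each list. Under these rules all protein-coding genes stood at 37.1% and 29.9%. Of 14 E2 enzyme genes, which pass ubiquitin to RING ligases, 12 held one, 9 at a gene end, including Ube2n and Ube2d3, and the exceptions were Ube2d1 and Ube2o. No gene of the 3 lists had a KO peak. The background is 44.3% of all protein-coding genes, and the lists were not tested.

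For scale, 3 other families were taken by symbol. A WT-only region lay at 58 of 83 Rnf genes (69.9%), 32 of 41 Zbtb genes (78.0%) and 46 of 69 Rab genes (66.7%), where the share of protein-coding genes of the same lengths was 46.5%, 47.3% and 50.6%. For the Trim genes these values were 48.5% and 48.6%. Each of the other families had KO peaks at 2 genes (2.41% of Rnf, 4.88% of Zbtb and 2.90% of Rab genes), against 2.42% of all protein-coding genes. The differences between families were not tested, and expression of these genes in the cells was not measured here.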

How the data were processed

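The authors deposited 4 peak lists, 1 for each ChIP library, as chromosome, start and end, with no other measurement; the 4 input samples were not analysed here. Per the submitters' processing notes, Trim Galore, Bowtie, HOMER 4.8.3 and mm10 were used, with no role given for each. Calling thresholds and the use of inputs: not given in the sources used here. Depth is unknown, so peak numbers can follow depth as well as binding, and no interval was computed.

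Positions were made 1-based. Gene bounds came from RefSeq on GRCm38.p6, whose main chromosomes are those of mm10. Of 21900 protein-coding genes, 21779 were used; those off the main chromosomes or starting below 3 Mb (except on Y) were left out. The table lacks strand, so a gene end is either end, and annotated starts came from the promoter entries of 53 Trim genes. Length-adjusted shares used 10 groups by territory length over all genes.

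Library counts were compared by a 2-sided exact permutation test. Where the WT and KO values do not overlap, as here, the design fixes the p-value, which then does not measure the spread between samples. That spread may be technical. The overlap steps were tested on simulated peaks with known answers. The members, lists and domain classes were chosen with earlier results of these data known, and motifs and printed sequences after the values were seen; Trim45 was given a class of its own, and Trim80 left without one, after the files were read. Named genes were Trim8, Trim24, Trim27, Trim28, Trim33, the 10 with the widest WT-only region, the 5 with the most, any with a KO peak and up to 2 per class, with genes peaked in 1 WT list named as a list; others were named after their values were seen. Alternatives covered territory, gene-end window, overlap rule, peak width, nearest gene, autosomes and each list left out. Python 3.11.15, numpy 2.4.6, pandas 2.3.3, SciPy 1.17.1, Biopython 1.88 and matplotlib 3.10.9 were used.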

Additional observations from a re-analysis of the deposited data

How the results depend on the processing

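For WT-only regions in the territory the count of Trim genes was 33, and it ran from 25 (gene body alone) to 43 (without WT replicate 2) over the alternatives except the one that kept peaks at or above the median width of each list, which gave 18. By construction that setting drops narrow peaks, and all protein-coding genes then stood at 29.9%, against 26.5% of the Trim genes. At gene ends the main count was 18; a window of 5 kb gave 28, and the other alternatives ran from 12 to 24. Leaving out each list gave 33 to 43 genes for the territory and 18 to 24 for gene ends. The count of Trim genes with a KO peak was 0 under all 7 alternatives run, which included a territory of 20 kb; the KO peak closest to a Trim gene lay 65.8 kb from Trim35. The WT minus KO difference in Trim genes with a peak per library was 41.0 for the territory (range over alternatives 23 to 47) and 22.5 for gene ends (14.5 to 36), always higher in WT. Leaving out a list gave 39 to 43 and 21 to 24; 1 group then has a single library, and the design fixes the smallest p, so no test is read from it. Pairing the libraries by replicate number (replicate block) left the differences at 41.0 and 22.5 with an exact sign permutation p = 0.5, the smallest that 2 pairs allow; the labels do not say what a number shares, and with no KO peak at these genes pairing could not be checked. For single named genes, the number of WT-only regions was within 1.5 times the main value in 197 comparisons with an alternative and outside it in 50; the cause was not tested. Without scores or depth, a gene without a peak cannot be told from one below the calling threshold.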
